A study of Homo sapiens with 24 samples.

Results

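Immediate early transcription factor genes were followed in 24 arrays of sorted human breast cancer cells. The list held 10 genes, namely FOS, FOSB, FOSL1, JUN, JUNB, EGR1, EGR2, EGR3, DUSP1 and IER2, and the comparison of interest was that of the EGR genes with the FOS genes over cell line, treatment and fraction. For each gene the probe set that named it alone and had the highest mean over the 24 arrays was taken. This gave values for 9 of the 10 genes, among 22395 genes measured in all; EGR2 had no probe set of its own in the table and is not analysed here. The genes were chosen by their levels over line, treatment and fraction on these same arrays, so the levels and differences are a description, and no p-value is given for them.

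The cells were SUM159, a triple-negative breast cancer line with mesenchymal features, and T47D, a luminal line that carries the estrogen receptor. The labels describe a 72 hours exposure to 5 µM ID8, a small molecule known as an inhibitor of DYRK kinases, or to DMSO, its solvent. The cells were then trypsinised, stained with the Aldefluor reagent, whose fluorescence marks aldehyde dehydrogenase activity, and sorted into Aldefluor+ and Aldefluor- cells, the fraction that the study treats as cancer stem cells and the remainder. Each of the 8 groups (2 lines, 2 treatments, 2 fractions) had 3 arrays, 1 from each of 3 separate experiments, numbered 2, 3 and 4 in SUM159 and 5, 6 and 7 in T47D. No group was an untouched culture: every array came from cells that had been detached, stained for 30 minutes at 37C and sorted. Cells of 3 flasks were pooled for each treatment, and each line stands for 1 tumour.

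Immediate early genes are transcribed within minutes of a growth factor, stress or handling signal, without new protein synthesis, and their mRNAs decay quickly. The ERK pathway phosphorylates ETS factors that sit with serum response factor on CArG boxes, and CREB acts on cyclic AMP response elements; FOS, EGR1 and many others respond to both. FOS, FOSB and FOSL1 proteins pair with JUN or JUNB to form AP-1, while EGR1, EGR2 and EGR3 are zinc finger factors that bind GC-rich sites, and DUSP1 is a phosphatase that switches off the MAP kinases.

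Values are log2 signals, which have no true zero. Probes differ in brightness, so levels do not order the genes by abundance, and the size of a difference between lines is not read, because the authors' batch adjustment can compress it. Between the lines, markers were used for direction alone: 11 of 11 measured SUM159 markers were higher in SUM159 and 15 of 15 T47D markers were higher in T47D. Of the leukocyte and endothelial markers measured, 5 of 7 and 5 of 5 had means below 2 in both lines, a level near the median of all gene means (2.06). The interquartile range of an array's values lay between 2.17 and 2.33, except for the SUM159 DMSO Aldefluor+ array of experiment 4 at 2.05. The mean signal over the 24 arrays was 6.91 for JUN, 5.61 for FOSL1, 5.35 for JUNB, 5.10 for DUSP1, 4.89 for IER2, 3.66 for FOSB and 3.38 for EGR1. It was 2.10 for FOS and 1.40 for EGR3, a range where signal over background is small.

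**Figure D1:**
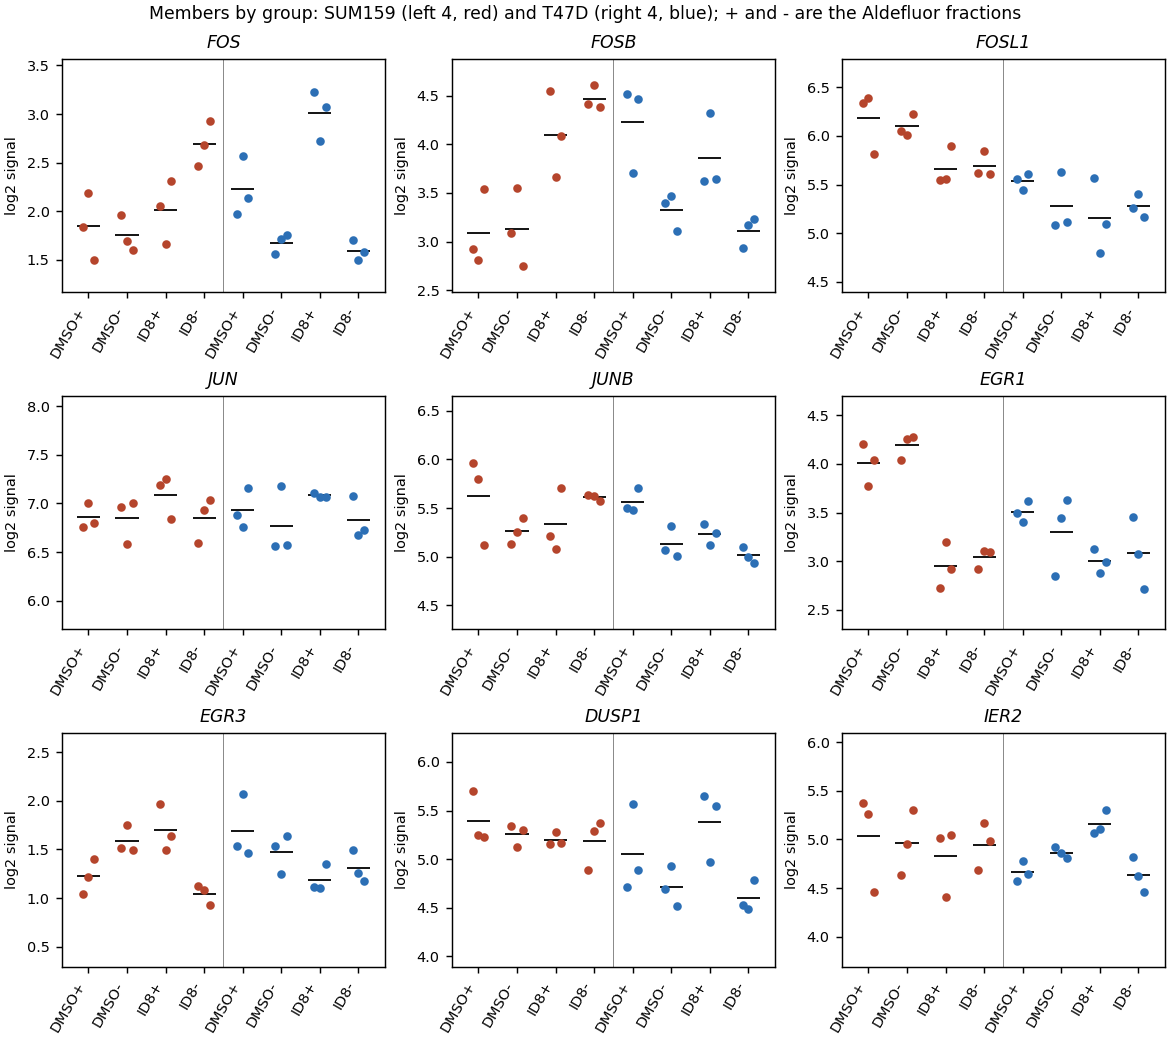
Log2 signal of the 9 measured genes in each array (points) with group means (lines, n = 3 arrays), SUM159 in red and T47D in blue, each panel on its own axis. EGR1 drops between the DMSO and ID8 columns of SUM159 (4.01 to 2.95 in Aldefluor+ cells), FOSB climbs there (3.09 to 4.10), and FOS in T47D is high in both Aldefluor+ columns (2.22 and 3.01).

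In SUM159 cells, EGR1 and FOSB differed with ID8 in opposite directions, while their relatives EGR3, FOS and FOSL1 did not all go with them. EGR1 was about 2-fold lower with ID8 in both fractions, and FOSB was about 2-fold higher with the probe set used. The other FOSB probe set gave smaller log2 differences, 0.17 in Aldefluor+ and 0.66 in Aldefluor- cells. In the Aldefluor+ cells EGR1 read 4.21, 3.78 and 4.04 with DMSO and 2.73, 3.20 and 2.92 with ID8. In the Aldefluor- cells it read 4.04, 4.25 and 4.28 with DMSO and 2.92, 3.11 and 3.09 with ID8. All 6 ID8 arrays lay below all 6 DMSO arrays. The difference was -1.06 ± 0.21 (log2, SE) in Aldefluor+ and -1.15 ± 0.21 in Aldefluor- cells, and -1.11 ± 0.15 on average, a 2.15-fold lower signal. By experiment the average difference was -1.30, -0.86 and -1.15. A single gene of the 22395 had a lower average difference, PTPN22 (-1.60), a phosphatase that was noticed after the values were seen.

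FOSB encodes an AP-1 subunit whose mRNA is induced with that of FOS. In the Aldefluor+ cells it read 2.92, 2.81 and 3.54 with DMSO against 4.54, 3.67 and 4.08 with ID8. In the Aldefluor- cells it read 3.08, 3.56 and 2.74 with DMSO against 4.41, 4.61 and 4.39 with ID8. With this probe set no ID8 array overlapped a DMSO array in either fraction. With the other FOSB probe set the Aldefluor+ groups overlapped. The difference was 1.01 ± 0.29 in Aldefluor+ and 1.34 ± 0.29 in Aldefluor- cells, and 1.18 ± 0.21 on average (2.26-fold), with 1.48, 0.96 and 1.09 by experiment.

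FOS, the best known AP-1 subunit, had values in the Aldefluor- cells that ran with those of FOSB: 1.96, 1.70 and 1.61 with DMSO became 2.46, 2.68 and 2.93 with ID8, without overlap, a difference of 0.94 ± 0.22. In the Aldefluor+ cells the values were 1.84, 2.19 and 1.50 against 2.05, 1.67 and 2.31, which overlapped, with a difference of 0.16 ± 0.22. FOSL1, the AP-1 subunit that is often high in mesenchymal breast cancer cells, went the other way from FOSB. It read 6.34, 6.39 and 5.82 with DMSO and 5.55, 5.55 and 5.89 with ID8 in Aldefluor+ cells, which overlapped, and 6.05, 6.01 and 6.23 against 5.61, 5.85 and 5.60 in Aldefluor- cells, which did not. The FOSL1 difference was -0.51 ± 0.20 and -0.41 ± 0.20.

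EGR3, which is itself a target of EGR1 in other cells, changed sign with the fraction. In Aldefluor+ cells it was 1.04, 1.21 and 1.40 with DMSO and 1.96, 1.49 and 1.64 with ID8 (difference 0.48 ± 0.18). In Aldefluor- cells it was 1.51, 1.75 and 1.50 with DMSO and 1.13, 1.08 and 0.93 with ID8. Neither pair of groups overlapped, but all 12 values were below 2, where signal over background is small. JUN, JUNB, DUSP1 and IER2 had average differences between -0.13 and 0.12. JUNB, though, differed by -0.30 ± 0.20 in Aldefluor+ cells, which overlapped, and by 0.35 ± 0.20 in Aldefluor- cells, which did not.

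limma's rule (adjusted p under 0.05 over all genes) called 2 of the 9 genes on average over the fractions, EGR1 lower and FOSB higher, where it called 0.688% of all genes. It called EGR1 alone in Aldefluor+ cells (background 0.241%) and EGR1 alone in Aldefluor- cells (background 0.277%). Groups that did not overlap were found for 3 of the 9 genes in Aldefluor+ cells, where 18.7% of all genes had such groups, for 6 of the 9 in Aldefluor- cells, where 18.9% did, and in both fractions together for EGR1 and FOSB, where 1.88% did. Since the list came from these contrasts, nothing is read from the counts. Leaving out experiment 2 or experiment 4, with fewer arrays, removed the average calls of EGR1 and FOSB, and leaving out any experiment of SUM159 removed those of EGR1 within a fraction (called in 3 of 11 alternatives in Aldefluor+ and 7 of 11 in Aldefluor- cells), while the average EGR1 difference stayed between -1.23 and -1.01 over every alternative run.

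**Figure D2:**
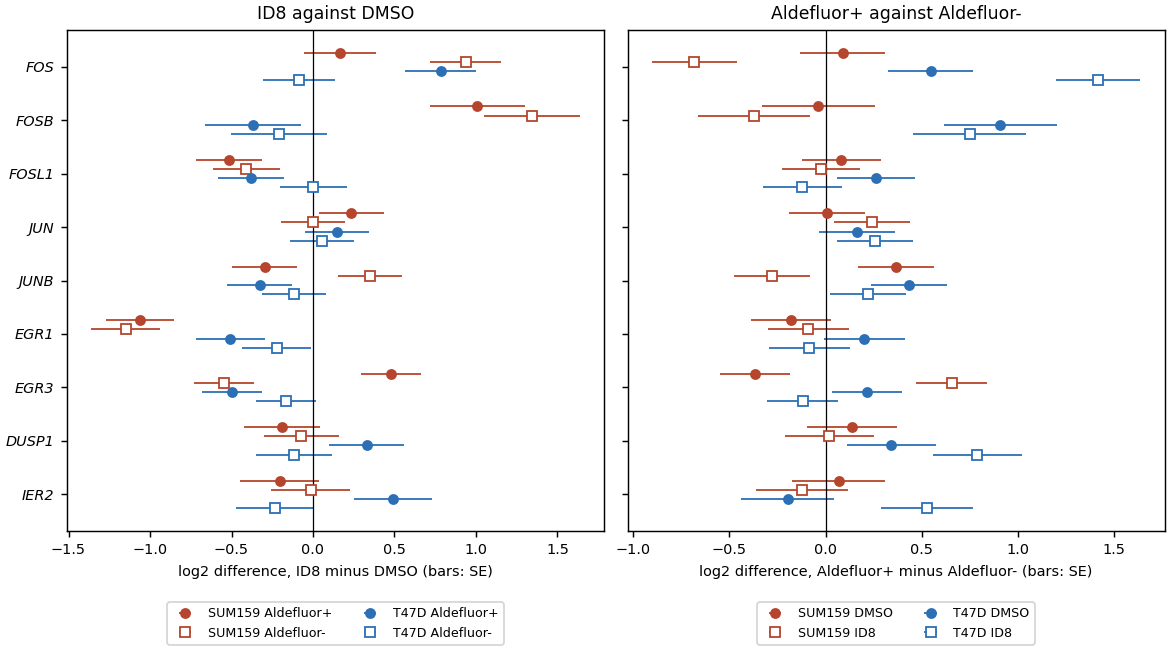
Differences with their SE from the limma model, ID8 minus DMSO on the left and Aldefluor+ minus Aldefluor- on the right, both in log2 units, for the 9 genes in each line. On the left, EGR1 (-1.06 and -1.15) and FOSB (1.01 and 1.34) of SUM159 sit at opposite ends; on the right, FOS of T47D treated with ID8 (1.41) is farthest from 0.

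The promoter sequences show which known response elements lie near the start of the genes described most fully here, EGR1, FOSB, FOS and DUSP1. RefSeq promoters (assembly GRCh38.p14, 250 bases before to 50 after the start) were in the table for 8 of the 10 genes, and the 250 upstream bases of these 4 are printed 5′ to 3′ on the gene's strand. Capitals mark matches, on either strand, to the CArG box, to the cyclic AMP response element (CRE) core TGACGT, which was added after the sequences were seen, to the full CRE TGACGTCA, which contains that core, and to the EGR site GCGNGGGCG.
EGR1: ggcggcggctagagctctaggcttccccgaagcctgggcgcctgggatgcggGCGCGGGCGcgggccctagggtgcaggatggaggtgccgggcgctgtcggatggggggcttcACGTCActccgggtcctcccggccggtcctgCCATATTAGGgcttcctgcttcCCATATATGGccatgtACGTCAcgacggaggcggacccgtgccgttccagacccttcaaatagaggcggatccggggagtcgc
FOSB: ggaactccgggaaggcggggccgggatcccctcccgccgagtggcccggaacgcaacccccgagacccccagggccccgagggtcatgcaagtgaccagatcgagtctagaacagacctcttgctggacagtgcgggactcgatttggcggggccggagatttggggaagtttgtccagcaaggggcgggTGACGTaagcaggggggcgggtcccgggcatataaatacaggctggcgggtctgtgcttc
FOS: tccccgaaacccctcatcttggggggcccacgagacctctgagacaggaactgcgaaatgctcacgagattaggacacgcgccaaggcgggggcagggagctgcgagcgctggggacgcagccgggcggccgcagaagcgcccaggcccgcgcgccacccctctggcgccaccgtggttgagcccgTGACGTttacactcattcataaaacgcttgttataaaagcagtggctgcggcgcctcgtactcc
DUSP1: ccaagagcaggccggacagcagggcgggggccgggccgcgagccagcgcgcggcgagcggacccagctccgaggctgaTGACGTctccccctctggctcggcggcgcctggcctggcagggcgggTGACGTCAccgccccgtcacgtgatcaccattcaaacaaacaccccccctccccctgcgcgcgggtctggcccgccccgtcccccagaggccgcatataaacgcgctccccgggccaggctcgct
EGR1 (chr5:138465229-138465478, plus strand) held 2 CArG boxes, at -105 to -96 and -83 to -74 from the start. Of 35116 promoters, 1.29% hold at least 1 CArG box. This and the other shares are over the whole window of 300 bases. EGR1 also held CRE cores at -136 to -131 and -67 to -62, and an EGR site (9.43% of promoters) at -198 to -190. FOSB (chr19:45467746-45467995, plus strand) and FOS (chr14:75278578-75278827, plus strand) each held a CRE core alone within this window, at -60 to -55 and -64 to -59. Such a core is found in 7.98% of all promoters. DUSP1 (chr5:172771196-172771445, minus strand) held a full CRE at -125 to -118, found in 1.85% of promoters, and another core at -172 to -167. No match to these motifs, or to the AP-1 site TGANTCA (7.71% of promoters), was found in the windows of JUN, JUNB and IER2. Sites farther than 250 bases before the start were not searched, so a motif missing here can still lie farther upstream. The matches are of letters alone, and binding was not measured.

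In T47D cells the difference lay between the fractions. FOS, and FOSB with the probe set used, were higher in Aldefluor+ than in Aldefluor- cells with either treatment, while the values of EGR1 and EGR3 overlapped. With the other FOSB probe set the fractions overlapped under both treatments. Its average difference was 0.31, and it was -0.25 in experiment 6. FOS with DMSO read 1.98, 2.57 and 2.13 in Aldefluor+ cells and 1.56, 1.72 and 1.76 in Aldefluor- cells. With ID8 it read 3.23, 2.72 and 3.07 against 1.70, 1.50 and 1.58. All 6 Aldefluor+ arrays lay above all 6 Aldefluor- arrays. The Aldefluor- values (1.50 to 1.76) were in the range where signal over background is small, which limits the fold sizes. The difference was 0.55 ± 0.22 with DMSO, 1.41 ± 0.22 with ID8 (2.67-fold) and 0.98 ± 0.16 on average (1.97-fold), with averages of 0.97, 1.03 and 0.94 by experiment. In such bulk RNA, more cells that express a gene and more RNA per cell cannot be told apart.

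FOSB with DMSO read 4.52, 3.71 and 4.46 in Aldefluor+ cells and 3.39, 3.47 and 3.10 in Aldefluor- cells. With ID8 it read 3.62, 4.32 and 3.65 against 2.93, 3.17 and 3.23. Neither pair overlapped, and the difference was 0.91 ± 0.29 with DMSO, 0.75 ± 0.29 with ID8 and 0.83 ± 0.21 on average. DUSP1, a target of the same kinases that it restrains, was 4.72, 5.57 and 4.88 against 4.69, 4.93 and 4.52 with DMSO, which overlapped. With ID8 it was 5.65, 4.97 and 5.54 against 4.53, 4.49 and 4.78, which did not. Its average difference was 0.56 ± 0.16, or 0.57, 0.56 and 0.56 by experiment. These averages joined unlike values: by experiment it was 0.02, 0.64 and 0.36 with DMSO and 1.12, 0.48 and 0.76 with ID8. Over both treatments together the DUSP1 values of the fractions overlapped.

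IER2, a nuclear regulator induced with FOS, separated the fractions in opposite directions by treatment. With DMSO its Aldefluor+ values (4.58, 4.78 and 4.64) lay below the Aldefluor- values (4.92, 4.86 and 4.81); with ID8 they lay above (5.07, 5.10 and 5.30 against 4.82, 4.62 and 4.46). The differences were -0.20 ± 0.24 and 0.53 ± 0.24. JUNB, the partner with weaker activity than JUN, was higher in Aldefluor+ cells without overlap under both treatments, by 0.43 ± 0.20 and 0.22 ± 0.20. EGR1 differed by 0.20 ± 0.21 with DMSO and -0.08 ± 0.21 with ID8, EGR3 by 0.21 ± 0.18 and -0.12 ± 0.18, and both overlapped between the fractions.

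On average over the treatments, 9 of 9 genes had a difference above 0, with a median of 0.21, where the median of all genes was -0.00 and 49.3% were above 0. Those of FOSL1 (0.07 ± 0.14), EGR1 (0.06 ± 0.15), EGR3 (0.05 ± 0.13) and IER2 (0.16 ± 0.17) were smaller than their SE. The list came from these contrasts, so nothing is read from this count or from those that follow. Calls at adjusted p under 0.05 numbered 1 of 9, FOS, where 0.875% of all genes were called. With ID8 the same rule called FOS (background 0.366%), and with DMSO it called none of the 9 (background 0.152%). No array overlapped for 5 of the 9 genes with ID8 (19.5% of all genes) and for 4 of the 9 with DMSO (19.1% of all genes). Under both treatments together this held for FOS and for FOSB with the probe set used (1.89% of all genes). The calls of FOS were lost without experiment 5 or without experiment 7, and its average difference then still lay between 0.95 and 1.00.

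Mean RNA per sorted cell was higher in Aldefluor+ than in Aldefluor- cells of both lines, under each treatment. It was 19.3 ± 1.05 pg (SD, n = 3) in T47D Aldefluor+ against 13.8 ± 3.03 pg in Aldefluor- cells with DMSO, and 17.3 ± 4.43 against 11.8 ± 3.15 pg with ID8. In SUM159 it was 12.9 ± 0.173 against 10.6 ± 1.31 pg and 14.3 ± 1.79 against 12.7 ± 2.17 pg. The part of RNA yield in the result was not tested. Heat shock and handling genes were measured for 8 of 12 listed (HSPA1A, HSPA1B, HSPA8 and HSPE1 had no probe set of their own). None of the 8 passed the test between the T47D fractions, their median difference was 0.04, and 5 of 8 were above 0; DNAJB1, a heat shock co-chaperone, had the value 0.40 (limma, adjusted p = 0.153).

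ID8 in T47D cells gave no call among the 9 genes. EGR1 was 3.49, 3.41 and 3.62 with DMSO and 3.12, 2.88 and 2.99 with ID8 in Aldefluor+ cells, without overlap, a difference of -0.51 ± 0.21. In the Aldefluor- cells it was 2.84, 3.44 and 3.62 against 3.46, 3.07 and 2.72, which overlapped (-0.22 ± 0.21). FOSB, with the probe set used, did not show the direction seen in SUM159: its differences were -0.37 ± 0.29 and -0.21 ± 0.29, and the groups overlapped. FOS was higher with ID8 in Aldefluor+ cells, without overlap, by 0.78 ± 0.22, and differed by -0.09 ± 0.22 in Aldefluor- cells. IER2 also lay higher with ID8 in Aldefluor+ cells (0.49 ± 0.24), while EGR3 (-0.50 ± 0.18) and JUNB (-0.33 ± 0.20) lay lower, each without overlap. EGR3 was in the range where signal over background is small. None of the 9 was called in Aldefluor+ cells (background 0.375%), in Aldefluor- cells (background 0.0179%) or on average (background 0.505%). With no overlap, 5 of the 9 genes differed in Aldefluor+ cells, where 21.2% of all genes did, and 0 of the 9 in Aldefluor- cells, where 16.5% did.

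Between the SUM159 fractions no gene of the 9 was called with DMSO (background 0.0223%), with ID8 (background 0.201%) or on average (background 0.219%). FOS with ID8 was lower in Aldefluor+ cells without overlap, at 2.05, 1.67 and 2.31 against 2.46, 2.68 and 2.93 (-0.68 ± 0.22), the reverse of T47D and likewise at low signal. EGR3 was lower in Aldefluor+ cells with DMSO (-0.37 ± 0.18) and higher with ID8 (0.65 ± 0.18), each without overlap. Groups did not overlap for 1 of the 9 genes with DMSO, where 17.3% of all genes had such groups, and for 2 of the 9 with ID8, where 17% did. The other 7 genes overlapped between the fractions under both treatments, with differences between -0.37 and 0.37.

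The lines can be compared by the difference of their differences, which the same model gives. For the fraction effect, T47D minus SUM159, limma called FOS (1.28 ± 0.22), 1 of 9, where 0.478% of all genes were called; FOSB had 1.03 and DUSP1 0.49. As the genes were chosen on these contrasts, both calls are a description, and FOS signal was low (mean 2.10 over the 24 arrays). For the ID8 effect it called FOSB (-1.46 ± 0.29), 1 of 9, where 0.647% of all genes were called, and EGR1 had 0.74. The FOSB call was lost without any 1 of the 6 experiments, and that of FOS without experiment 2, 5, 6 or 7. Within a line, none of the 9 was called for the difference of the fraction effect between treatments (background 0.00447% in SUM159 and 0% in T47D, where 1328 genes had an unadjusted p under 0.05). EGR3 in SUM159 had 1.02 and FOS in T47D had 0.87 there.

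The mean of FOS and FOSB minus the mean of EGR1 and EGR3 was taken as a summary of each array after the values of these genes were seen. It restates their values and is no separate evidence, it leaves out FOSL1, which differed by -0.46 with ID8 in SUM159, and its zero means nothing. In SUM159 it was -0.15 ± 0.14 (SD, n = 3) in Aldefluor+ and -0.45 ± 0.24 in Aldefluor- cells with DMSO. With ID8 it was 0.73 ± 0.35 and 1.54 ± 0.12, so all 6 ID8 arrays (at least 0.32) lay above all 6 DMSO arrays (at most 0.01). In T47D it was 0.63 ± 0.20 and 0.11 ± 0.27 with DMSO, and 1.34 ± 0.17 and 0.16 ± 0.31 with ID8. There the Aldefluor+ cells were the high ones under ID8, with no overlap, and under DMSO the lowest Aldefluor+ array (0.40) lay above the highest Aldefluor- array (0.29). All of these values take FOSB from the probe set used. With the other FOSB probe set the SUM159 treatments would overlap, and so would the T47D fractions with DMSO.

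**Figure D3:**
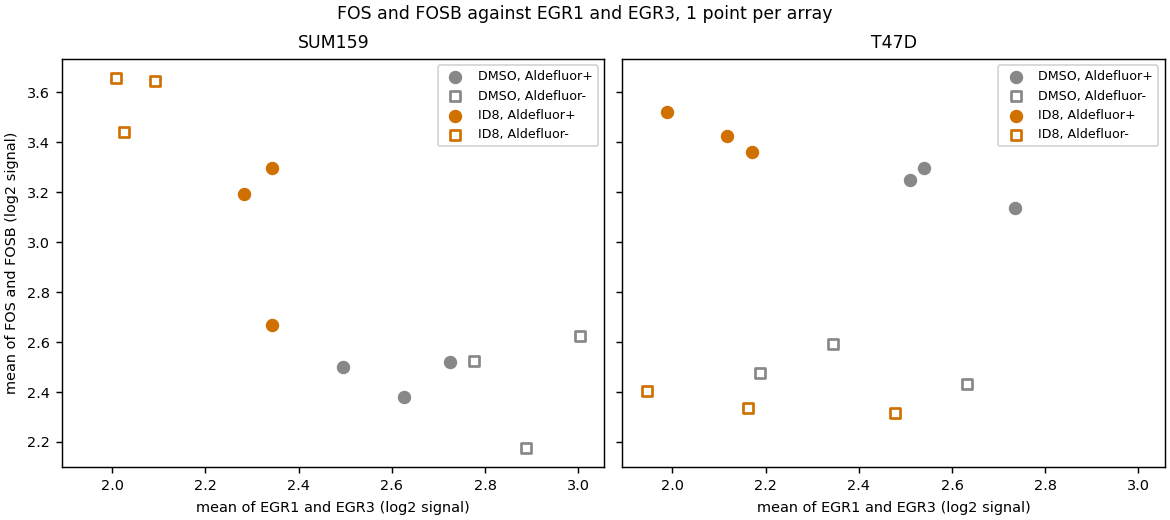
Mean log2 signal of FOS and FOSB, the latter by the probe set used (vertical), against that of EGR1 and EGR3 (horizontal) in each array, SUM159 left and T47D right, grey for DMSO and orange for ID8, filled for Aldefluor+ and open for Aldefluor-. In SUM159 the orange points lie up and left of the grey ones; in T47D the filled points (3.14 to 3.52) lie above the open ones (2.32 to 2.59).

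FOSB had a second probe set that named it alone, and it gave smaller differences for ID8 in SUM159 and between the T47D fractions. Its mean was 3.27 against 3.66 for the one used, and the pair correlated with r = 0.55 over the 24 arrays, which share lines and groups. With the second probe set the ID8 difference in SUM159 was 0.17 in Aldefluor+ and 0.66 in Aldefluor- cells (0.41 on average), and the T47D fraction difference was 0.31 on average. These averages had the same sign as with the probe set used. With the second one, though, the groups overlapped for ID8 in SUM159 Aldefluor+ cells, where the differences by experiment were 0.40, -0.01 and 0.11. They also overlapped between the T47D fractions under both treatments, and the average by experiment there was 0.57, -0.25 and 0.63. Between the SUM159 fractions with DMSO the second probe set gave 0.39, without overlap, against -0.04 with the probe set used. On average over the treatments the SUM159 fraction difference was 0.14 against -0.21. For ID8 in T47D the second probe set gave 0.18 in Aldefluor+ and -0.14 in Aldefluor- cells, and the groups overlapped. The average there was 0.02, against -0.29 with the probe set used. The ID8 difference of T47D minus that of SUM159 was -0.39, against -1.46 with the probe set used.

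**Figure D4:**
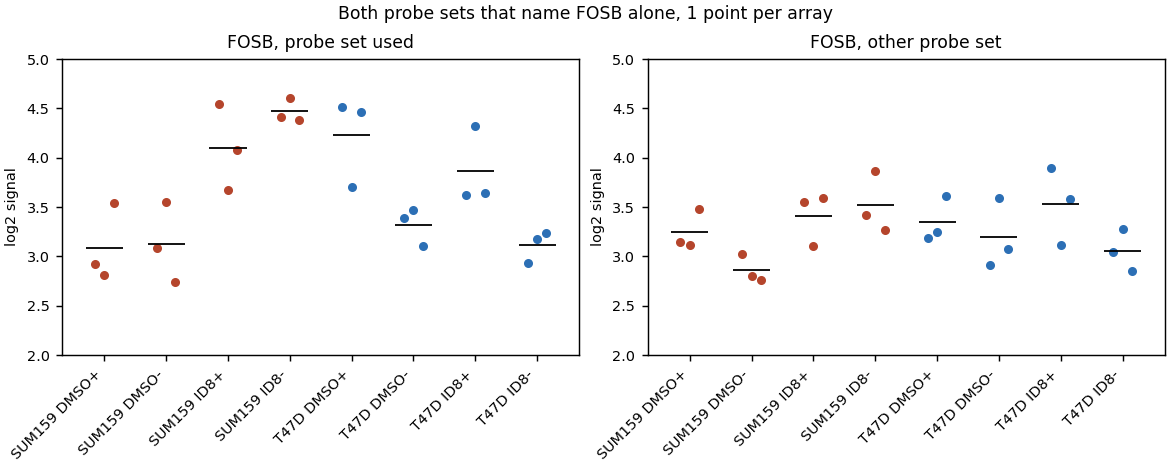
Log2 signal of the probe set used for FOSB (left) and of the other probe set that names FOSB alone (right) in each array (points), with group means (lines, n = 3). The step between the DMSO and ID8 columns of SUM159 Aldefluor- cells is 3.13 to 4.47 on the left and 2.86 to 3.52 on the right.

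Most other genes of the pathway did not pass the test. Of 29 measured further immediate early genes, none passed the test in any of the 12 comparisons of groups or averages; between the T47D fractions 21 of 29 were above 0 on average (median 0.14), and CCN1, a matricellular protein gene, had the value 0.49 (limma, adjusted p = 0.0609). With ID8 in SUM159, 14 of the 29 were above 0 (median -0.03). Among 15 measured upstream genes, ELK3, an ETS factor that partners serum response factor, fell with ID8 in SUM159 by 0.50 ± 0.10 on average (limma, adjusted p = 0.0242), and was the only one of them to pass there. RPS6KA5, the MSK1 kinase that phosphorylates CREB and histone H3, rose with ID8 in T47D by 0.63 ± 0.11 on average (adjusted p = 0.0183) and by 0.90 ± 0.16 in Aldefluor+ cells (adjusted p = 0.0233). Of 17 genes of the ERK feedback list, 3 were above 0 with ID8 in SUM159 (median -0.14) and 1 passed, ETV1, an ETS factor that ERK signalling sustains, which fell by 0.55 ± 0.12 (adjusted p = 0.0451).

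Targets were no more uniform. Of 9 measured genes with known EGR sites, 1 passed with ID8 in SUM159: F3, tissue factor, rose 1.81-fold (0.85 ± 0.16, limma, adjusted p = 0.0170), while EGR1 itself was lower. Its group means were 4.34 and 4.50 with DMSO and 5.28 and 5.26 with ID8. Of 15 AP-1 targets, none passed there; PLAUR, the urokinase receptor gene, had the value -0.70 (adjusted p = 0.0737). Between the T47D fractions 1 of the 15 passed, IVL, the cornified envelope gene involucrin, which was 0.81 ± 0.15 higher in Aldefluor+ cells (adjusted p = 0.0142), with a list median of 0.06. None of 12 measured genes of the partner list and none of 7 mRNA decay genes passed in any of the 12 comparisons. The calls of F3, ELK3 and RPS6KA5 were each lost when any 1 experiment of their line was left out, and those of ETV1 and IVL when either of 2 experiments was. Over all 11 alternatives, the average call held in 8 for F3, 8 for RPS6KA5, 6 for ELK3, 5 for ETV1 (adjusted p up to 0.470) and 9 for IVL, and that of RPS6KA5 in Aldefluor+ cells in 6. With just the Aldefluor+ array of SUM159 on DMSO in experiment 4 left out, ELK3 (adjusted p = 0.0614) and ETV1 (0.0674) were not called.

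Over the 24 arrays, after each line's mean was subtracted, the genes most like FOS among 11410 compared were CCN1 (Pearson r = 0.87), NOP10 (0.84), TGFB2 (0.82), EMC7 (0.81) and EFCAB14 (0.80). Those most like EGR1 were C19orf33 (0.83), MYPN (0.80), SERINC3 (0.80), AXL (0.78) and TXNIP (0.77). These correlations describe arrays that share groups and experiments, and carry no test.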

How the data were processed

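Total RNA of 24 sorted samples was amplified and hybridised to Affymetrix Human Gene ST 2.1 arrays. The deposited values are log2 signals made by the authors with RMA and adjusted with ComBat for experimental and processing batches, per the labels and the series' design text; versions and the ComBat batches are not given in the sources used. That adjustment can compress differences, and the difference between lines most. Of 53617 probe sets, 23871 named 1 gene symbol, 1842 several and 27904 none in the platform table; 22569 symbols were updated by gene number to RefSeq GRCh38.p14. The probe set with the highest mean stood for each of 22395 genes (632 had several).

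Group means were fitted with limma 3.58.1 (R 4.3.3) over all 24 arrays, with experiment as a block inside each line, because the labels state that each number is a separate experiment. P-values were adjusted by Benjamini-Hochberg over all genes of a comparison and called under 0.05. SE come from this model and SD from arrays. The script was tested on simulated data. Genes, gene lists and comparisons were chosen with earlier results of these data known. Named genes are the 10 listed, the genes of the other lists that passed and up to 2 per list with the smallest p, and the 5 most correlated with FOS and with EGR1. Array number limits precision, and some comparisons have arrays in common. Alternatives were the model without the block, each experiment left out, array weights, quantile normalization, each line alone, a minimum mean of 2, and other probe set choices; the CRE core motif and the other FOSB probe set were added after seeing the data.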

Additional observations from a re-analysis of the deposited data

Results flagged for a closer look

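FOS differed most between the lines in the comparison of fractions. With ID8, the Aldefluor+ minus Aldefluor- difference was positive in every T47D experiment and negative in every SUM159 experiment, and the lines were 2.10 apart on the log2 scale, a gap that was not tested by itself. Averaged over treatments, the difference between lines was 1.28, and FOS signal was low (mean 2.10 over the 24 arrays). The gene was chosen on this contrast, so limma's call is a description, and it was lost without experiment 2, 5, 6 or 7. EGR3 showed opposite directions with ID8 in Aldefluor+ cells, lower in every T47D experiment and higher in every SUM159 experiment, -0.97 apart; this was not tested, and EGR3 signal was below 2. FOSB differed between lines in its response to ID8 by -1.46 with the probe set of highest mean and by -0.39 with its other probe set. The limma call of the first, again on a contrast that chose the gene, was lost without any 1 of the 6 experiments. Groups of 3 arrays are too small for a search for outlying arrays.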

How the results depend on the processing

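Differences of the members were recomputed under 10 to 12 alternatives each, and EGR3 has no value under the minimum mean of 2. Of 1188 such values, 57 changed sign, none of them of a called difference and all of differences no larger than 0.37 in size; the average ID8 difference of FOSB in T47D, for one, ran from -0.51 to 0.02. The 6 called differences of members kept their call in 46 of 66 refits and lost it in 20. The 13 called differences of other named genes kept their sign throughout, and kept their call in 101 of 143 refits and lost it in 42. Of 180 counts of called members, 38 moved. With no replicate block, members called went from 1 to 3 for ID8 in SUM159 Aldefluor- cells (EGR1, FOS and FOSB), from 0 to 1 for ID8 in T47D Aldefluor+ cells (FOS), from 1 to 3 for the average T47D fraction effect (DUSP1, FOS and FOSB), and from 1 to 2 for both comparisons between lines. Without the block the FOS difference between the SUM159 fractions with ID8, for one, stayed at -0.683 while its SE went from 0.220 to 0.193. Such a fit makes no allowance for the authors' batch adjustment, so nothing is read from these gains. Leaving out 1 experiment gave 0 to 0 called members for ID8 in each SUM159 fraction and for the line difference in ID8 effect, 0 to 2 for ID8 in SUM159 on average, and 0 to 1 for the T47D fraction effect with ID8, its average, and the line difference in fraction effect. Fewer arrays enter such a fit. For ID8 in SUM159 Aldefluor+ cells, 0 members were called without the DMSO Aldefluor+ array of experiment 4, over all probe sets, with the mean of a gene's probe sets, in each line alone and with array weights. For Aldefluor- cells the number was 2 with a minimum mean of 2 or array weights, and 0 over all probe sets. The minimum mean of 2 gave 2 for the average T47D fraction effect, and the line difference in ID8 effect had 0 over all probe sets or with their mean. Low signal limits FOS and EGR3 most.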

Other observations

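Among the line markers, 3 genes of the SUM159 list fell with ID8 in SUM159 on average: the receptor kinase genes AXL (by 0.62, limma, adjusted p = 0.0193) and EGFR (by 0.52, adjusted p = 0.00343) and the calcium-binding protein gene S100A4 (by 0.68, adjusted p = 0.00871). Of the 11 measured, 1 was above 0, with a median of -0.29; EGFR signalling is a classical inducer of immediate early genes. Of 11 alternatives, the call held in 8 for AXL, 9 for EGFR and 8 for S100A4; it was lost for AXL without any 1 of the 3 experiments, for EGFR without experiment 3 or 4 and for S100A4 without experiment 2 or 3. Between the T47D fractions, ANXA1 (0.78) and EGFR (0.46, adjusted p = 0.00778) of the same list were higher in Aldefluor+ cells on average, with the call held in 11 and 7 of 11; that of EGFR was lost without any 1 of the 3 experiments. Between the SUM159 fractions, S100A4 was lower in Aldefluor+ cells on average (-0.64, limma, adjusted p = 0.0319), with the call held in 5 of 11. Whether these genes have a part in the EGR1, FOSB or FOS values was not tested.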
